A study of Homo sapiens with 3 samples.

Results

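The genes examined were those encoding the subunits, activators, inhibitor and assembly chaperones of the proteasome. They were chosen by symbol, as all probe sets that name a single gene whose symbol starts with PSM, a letter from A to G and a number, without pseudogenes. The rule found 64 probe sets for 40 genes, out of 22215 gene probe sets on the array, of which 19064 name a single gene, and out of 11963 genes so named. PSMC3IP, which matches by its letters, encodes a factor of homologous recombination and not a proteasome subunit, so 39 proteasome genes remained. PSME3IP1, a protein that binds the activator PSME3, ends in the letters that mark pseudogenes and fell outside the rule. All cells were RH30, a single cultured line of alveolar rhabdomyosarcoma, which is a childhood tumour with features of immature skeletal muscle and carries the PAX3-FOXO1 fusion. They were exposed for 12 hours to 10 µM of an anti-MYCN PNA, for 12 hours to 10 µM of a mutated PNA that the study's design text calls inactive, or were untreated. A PNA (peptide nucleic acid) pairs with DNA like an oligonucleotide but is strung on an uncharged backbone. All cells were kept in RPMI with foetal bovine serum. There was 1 Affymetrix array per condition, 3 in total, so the differences below compare single arrays and come with neither a replicate error nor a test. The title and treatment text of the array called untreated here say untreated, whereas its source name says mutated PNA, and any direction against that array rests on its title.

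The proteasome degrades proteins marked with ubiquitin chains. Its barrel-shaped core is built of outer rings of alpha subunits, which gate the entrance, and inner rings of beta subunits, of which PSMB5, PSMB6 and PSMB7 carry the cutting sites. A regulatory particle caps the core. Its base holds a ring of ATPases that unfold substrates, and its lid removes the ubiquitin chain. Interferon induces the immunoproteasome subunits PSMB8, PSMB9 and PSMB10, which replace the constitutive PSMB5, PSMB6 and PSMB7, and also the activator subunits PSME1 and PSME2, and together these change which peptides are made for MHC class I molecules. Fast-growing tumour cells depend on the proteasome to clear misfolded protein, and the transcription factor NFE2L1 raises the expression of proteasome subunits when proteasome activity falls short.

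Signals are MAS5 intensities on a linear scale, floored at 23.4, and a gene was compared when its mean signal over the 3 arrays reached 117. Of the 39 proteasome genes 37 passed, and each gene is represented by its brightest probe set. A gene is counted as apart when it differed at least 1.5-fold, which is 0.58 on the log2 scale. Signals of different probe sets are not set against each other, since probes differ in brightness. In bulk RNA, fewer cells that express a gene and less of its RNA per cell cannot be told apart.

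MYCN, the targeted gene, read 2202 with the anti-MYCN PNA, 2804 with the mutated PNA and 3313 in untreated cells. With the anti-MYCN PNA it was 78.6% of the mutated PNA value and 66.5% of the untreated value, so MYCN was lowest on the array labelled with its PNA. Of its 3 probe sets only 1 passed the filter and gave these values. The log2 difference was −0.35 to mutated PNA, short of 1.5-fold, and −0.59 to untreated, just past it. Over all genes compared the median size of the difference was 0.33 in each of these comparisons. Of the myogenic markers 6 of 10 passed the filter, while MYF5, MYF6, CHRND and CHRNG did not. MYOD1, the master regulator of muscle identity, read 7834, 6266 and 6715 in the same order. None of 8 leukocyte, 3 epithelial, 3 endothelial and 4 fibroblast markers passed. The 24 bacterial poly-A control probe sets, for RNA that such assays add before labelling, all read lower with the anti-MYCN PNA than on both other arrays, with a median ratio of 0.382 to mutated PNA and 0.410 to untreated, against 1.06 for mutated PNA over untreated. The ratio of 3′ to 5′ signal for GAPDH was 1.09 with the anti-MYCN PNA, 1.02 with the mutated PNA and 1.02 in untreated cells, and that for ACTB was 1.99, 1.73 and 2.11 in the same order. The part of the poly-A difference in the results below was not tested.

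Proteasome genes differed little between the arrays, and PSME1 was the only one at least 1.5-fold apart from both controls, except that PSMC6 joined it, on the lower side, when arrays were scaled to the same median. For anti-MYCN PNA over mutated PNA, 1 of 37 genes was at least 1.5-fold higher, which was PSME1, and 0 were lower, where 13.1% of all 6745 genes compared were higher and 10.7% lower. For anti-MYCN PNA over untreated, 2 were higher, PSME1 and PSMB10, and 1 was lower, PSMC6, where 13.1% of all genes were higher and 10.4% lower. For mutated PNA over untreated, 1 was higher, PSMB10, and 0 were lower, where 2.4% of all genes were higher and 2.27% lower. Against both controls at once 1 was higher and 0 lower, where 8.27% of all genes were higher and 7.37% lower. With arrays scaled to the same median, 1 proteasome gene was higher and 3 lower over mutated PNA, where 6.88% of all genes were higher and 18.1% lower, and 2 were higher and 1 lower over untreated, where the shares were 6.73% and 18.6%. That scaling lowers the differences of the anti-MYCN PNA array, so that small positive ones turn negative. The comparisons of the anti-MYCN PNA with the controls share its array. At 2-fold, 0 genes were higher or lower over mutated PNA, where 2.7% of all genes were higher and 2.33% lower, and 1, PSMB10, was higher and 0 lower over untreated, where the shares were 3.07% and 2.31%. PSMB10 fell just short of 2-fold over untreated with median scaling, at a log2 difference of 0.96, and with a pseudocount, at 0.99. For mutated PNA over untreated 0 passed 2-fold either way (0.371% of all genes higher and 0.371% lower), and 0 passed it against both controls (1.16% and 1.26%). Differences of 1.5-fold over mutated PNA were thus fewer among the proteasome genes than the background would give, as a description with no test.

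Most proteasome genes are bright on the array, and bright genes vary less. Of the 37, 34 had a mean signal of at least 1000, as had 2282 of all genes, a level chosen after the data were seen. At 1.5-fold over mutated PNA, 1 of the 34 was higher and 0 lower, against 5.61% and 8.68% of the 2282. The higher one was PSME1, which reached a mean of 1000 only through its anti-MYCN PNA signal, so its count here depends on the difference counted. Over untreated 1 was higher and 1 lower, against 5.13% and 8.76%. For mutated PNA over untreated 0 were higher or lower, against 0.57% and 0.482%. Against both controls 1 was higher and 0 lower, against 3.42% and 5.96%. The SD of the log2 difference of anti-MYCN PNA over mutated PNA was 0.30 over the 34 genes and 0.40 over the 2282. Between mutated PNA and untreated it was 0.12 over the 34 and 0.18 over the 2282. The median log2 difference of the 37 was 0.060 for anti-MYCN PNA over mutated PNA, 0.0034 over untreated and −0.0036 for mutated PNA over untreated, and the medians of all 6745 genes were 0.062, 0.065 and 0.0007. The medians of the proteasome genes lay close to those of all genes.

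**Figure D1:**
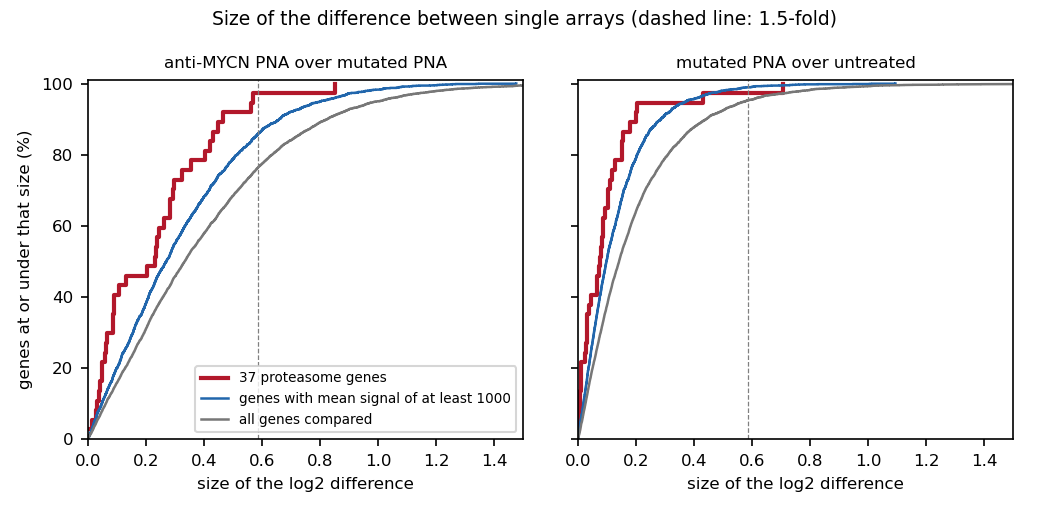
Share of genes (vertical axis, percent) whose log2 difference has at most the size on the horizontal axis, for anti-MYCN PNA over mutated PNA on the left and mutated PNA over untreated on the right. The proteasome genes (red, 37) lie to the left of all 6745 genes (grey) over most of both panels, and left of the 2282 genes with a mean signal of at least 1000 (blue) on the left; the last red step in the left panel is PSME1, at 0.85.

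The promoters of the members furthest from the mutated PNA or untreated values are shown because the interferon and NFE2L1 inputs to this gene family act there. The sequences are the 250 bases before each gene's start in RefSeq (GRCh38.p14), written 5′ to 3′ along the gene. PSME1 lies at chr14:24135944-24136193 on the plus strand, PSMB10 at chr16:67936851-67937100 on the minus strand, PSMC6 at chr14:52706950-52707199 on the plus strand and PSMD12 at chr17:67366578-67366827 on the minus strand. Capitals mark matches to any of 5 motifs searched on both strands: the interferon-stimulated response element (GAAA, then NN, then GAAA), TTCNNNGAA (gamma-activated site of STAT factors), TGACNNNGC (core of the antioxidant response element bound by NFE2L1 and NFE2L2), CCAAT and CACGTG (E-box bound by MYC-family factors). A base may belong to several matches.
PSME1: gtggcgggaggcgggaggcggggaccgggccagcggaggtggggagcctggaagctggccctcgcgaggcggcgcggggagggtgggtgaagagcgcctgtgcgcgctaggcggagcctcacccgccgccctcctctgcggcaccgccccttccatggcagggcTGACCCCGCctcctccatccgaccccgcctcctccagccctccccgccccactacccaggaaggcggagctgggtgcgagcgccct
PSMB10: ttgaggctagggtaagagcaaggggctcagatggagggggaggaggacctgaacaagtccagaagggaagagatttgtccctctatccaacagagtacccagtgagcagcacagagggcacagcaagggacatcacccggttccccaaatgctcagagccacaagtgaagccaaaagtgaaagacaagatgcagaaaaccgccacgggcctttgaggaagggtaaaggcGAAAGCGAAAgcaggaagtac
PSMC6: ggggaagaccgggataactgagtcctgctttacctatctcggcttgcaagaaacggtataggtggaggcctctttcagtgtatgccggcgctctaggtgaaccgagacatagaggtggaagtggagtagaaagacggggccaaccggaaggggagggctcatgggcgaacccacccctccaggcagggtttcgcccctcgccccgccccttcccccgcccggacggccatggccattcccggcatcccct
PSMD12: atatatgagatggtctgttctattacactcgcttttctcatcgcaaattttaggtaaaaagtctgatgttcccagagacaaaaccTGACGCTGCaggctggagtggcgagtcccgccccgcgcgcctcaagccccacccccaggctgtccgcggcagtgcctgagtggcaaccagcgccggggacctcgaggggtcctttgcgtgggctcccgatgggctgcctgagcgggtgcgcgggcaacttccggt
PSME1 and PSMD12, the members furthest above and furthest below mutated PNA, each held 1 TGACNNNGC match. PSMB10 held 1 interferon-stimulated response element close to the start, and PSMC6 held none of the 5. Such a match is a run of letters and not a measured binding site.

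Over the 41 promoter windows found for 34 proteasome genes, 11 held TGACNNNGC (26.8%), against 10.9% of all 35116 windows of the same length. CCAAT was in 39.0% against 32.0%, TTCNNNGAA in 14.6% against 6.57%, the interferon-stimulated response element in 7.32% against 3.02%, and CACGTG in 7.32% against 6.34%. The 3 members with CACGTG were PSMB3, PSMD9 and PSME3, and their log2 differences of anti-MYCN PNA over mutated PNA ran from −0.061 to 0.33. The 10 compared members with TGACNNNGC ran from −0.57 to 0.85 with a median of −0.045, and the 22 without it from −0.56 to 0.45 with a median of 0.063. Members with and without that motif thus covered overlapping ranges.

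The alpha subunits were split in direction. Of 6 compared, 0 were 1.5-fold apart in any of the 3 comparisons. The shares of all genes were 13.1% higher and 10.7% lower over mutated PNA, and 13.1% and 10.4% over untreated. For mutated PNA over untreated they were 2.4% and 2.27%. The median log2 difference of the alpha subunits was −0.013 for anti-MYCN PNA over mutated PNA, −0.0055 over untreated and 0.033 for mutated PNA over untreated. PSMA7 read 16488 with the anti-MYCN PNA, 12451 with the mutated PNA and 12437 in untreated cells. It was highest on the anti-MYCN PNA array, by 0.41 over mutated PNA on the log2 scale, and the controls lay together, but the difference was 0.21 with quantile normalization, 0.23 with median scaling and 0.16 as the median over its probe sets. PSMA4 read 4762 with the anti-MYCN PNA, 6570 with the mutated PNA and 6113 in untreated cells, and PSMA3 read 3825, 4650 and 4450 in the same order. Both were lowest on the anti-MYCN PNA array, with log2 differences of −0.46 and −0.28 to mutated PNA. PSMA5 read 3561, 3096 and 3552, so that mutated PNA was the low array and anti-MYCN PNA and untreated were alike. PSMA1 and PSMA2 differed from mutated PNA by 0.066 and −0.091. No probe set of the rule named PSMA6 or the testis subunit PSMA8.

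On their brightest probe sets the constitutive beta subunits were split over mutated PNA, with 4 above 0 and 3 below, while over untreated 6 were above and 1 below. Of all 6745 genes, 3719 lay above 0 over mutated PNA and 3720 over untreated. The count over untreated depended on the scaling: with median scaling PSMB4 turned to −0.18 and PSMB5 to −0.033. All 7 beta subunits passed the filter, and on their brightest probe sets 0 were 1.5-fold apart in any comparison. Beside this, 13.1% of all genes were higher and 10.7% lower over mutated PNA, and 13.1% and 10.4% over untreated. For mutated PNA over untreated the shares were 2.4% and 2.27%. Over mutated PNA they had a median log2 difference of 0.23, which was 0.051 when arrays were scaled to the same median and 0.079 with the median over probe sets. Over untreated it was 0.17, and −0.033 with median scaling. Of the catalytic subunits, PSMB6, which cuts after acidic residues, read 3695 with the anti-MYCN PNA, 2742 with the mutated PNA and 2684 in untreated cells, a log2 difference of 0.43 to mutated PNA and 0.46 to untreated. PSMB5, which cuts after hydrophobic residues and is the target of bortezomib, read 5607, 4735 and 4998 in the same order, 0.24 and 0.17. PSMB7, which cuts after basic residues, read 8201, 8450 and 8479, −0.043 and −0.048. The catalytic subunits therefore differed in direction, with PSMB6 and PSMB5 highest on the anti-MYCN PNA array and PSMB7 slightly lowest, although with median scaling PSMB5 lay at −0.033 to untreated. Among the structural beta subunits PSMB4 read 4767 with the anti-MYCN PNA, 5074 with the mutated PNA and 4699 in untreated cells on its brightest probe set. No array stood out there. Its other probe set, nearly as bright, read 4618, 3888 and 4077, highest with the anti-MYCN PNA, by 0.25 over mutated PNA and 0.18 over untreated. PSMB1, PSMB2 and PSMB3 ran from −0.029 to 0.24 over mutated PNA.

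The immunoproteasome subunits were dim. PSMB8, the counterpart of PSMB5, read 3.3 with the anti-MYCN PNA, 2.7 with the mutated PNA and 2.2 in untreated cells, all below the floor, and no fold is given. PSMB9, the counterpart of PSMB6, read 3.3 and 2.6 on the PNA arrays and 24.0 in untreated cells, next to the floor. PSMB10, the counterpart of PSMB7, passed the filter, with 215 with the anti-MYCN PNA, 157 with the mutated PNA and 96.4 in untreated cells. On these single arrays its signal was highest with the anti-MYCN PNA and lowest in untreated cells. Anti-MYCN PNA was 0.45 above mutated PNA on the log2 scale (0.27 with median scaling) and 1.15 above untreated. Mutated PNA was itself 0.71 above untreated. Among all genes 20.9% were as high or higher over mutated PNA, 1.6% for anti-MYCN PNA over untreated and 1.38% for mutated PNA over untreated. The untreated signal lay below the filter of 117. The constitutive PSMB7 was nearly level over the 3 arrays.

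**Figure D2:**
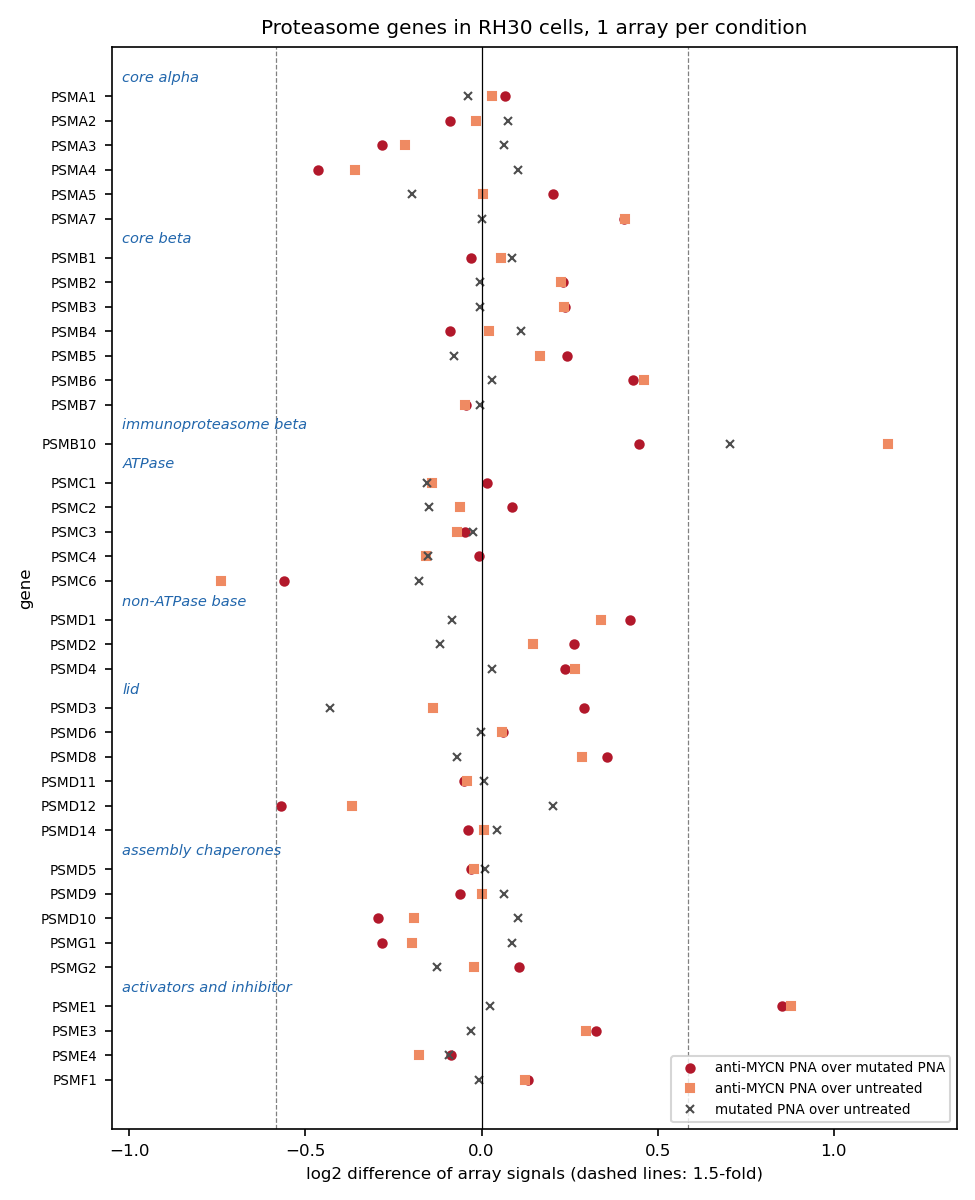
Log2 difference between arrays (horizontal axis) for the 37 proteasome genes compared, grouped by role: anti-MYCN PNA over mutated PNA (dots), anti-MYCN PNA over untreated (squares) and mutated PNA over untreated (crosses), with dashed lines at 1.5-fold. PSME1 has both anti-MYCN PNA points past the line, PSMB10 and PSMC6 only the one over untreated, and most crosses lie near 0.

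On their brightest probe sets the ATPases of the base hardly differed from mutated PNA, with PSMC6 as the exception. Their median over mutated PNA was −0.0070 for 5 genes and −0.14 over untreated. Of the 5, 1 was at least 1.5-fold lower than untreated, where 10.4% of all genes and 8.76% of bright genes were lower. PSMC6 read 1796 with the anti-MYCN PNA, 2650 with the mutated PNA and 2997 in untreated cells. It was lowest on the anti-MYCN PNA array, with log2 differences of −0.56 and −0.74, and 9.86% of the 2282 bright genes were as low or lower against mutated PNA. PSMC1 read 4529, 4484 and 4990, and PSMC2 read 5215, 4909 and 5444 in the same order, both highest in untreated cells. A dimmer probe set of PSMC2 read 463, 591 and 560, highest with the mutated PNA, and stood at −0.35 to mutated PNA, against 0.087 on the brightest. PSMC3 read 6010, 6209 and 6313, and PSMC4 differed from mutated PNA by −0.0070. For mutated PNA over untreated all 5 ATPases were below 0 on their brightest probe sets, from −0.18 to −0.024. That range lies inside the 0.37 within which 95% of bright genes stayed in that comparison. On the dimmer probe set of PSMC2 that difference was 0.077. No probe set of the rule named PSMC5.

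The non-ATPase subunits of the base read higher with the anti-MYCN PNA than on both other arrays. PSMD1, a scaffold that holds ubiquitin receptors, read 4266 with the anti-MYCN PNA, 3184 with the mutated PNA and 3373 in untreated cells. PSMD2, a second scaffold subunit, read 3889, 3239 and 3514, and PSMD4, a ubiquitin receptor, read 3982, 3381 and 3312. Their log2 differences to mutated PNA were 0.42, 0.26 and 0.24, below the 1.5-fold line in each case, and their median of 0.26 stayed above 0 with median scaling (0.084) and quantile normalization (0.29). Over untreated the median was 0.27, and with median scaling PSMD2 turned to −0.053. For PSMD4, 1 of 3 probe sets past the filter, at −0.0095, did not share the direction over mutated PNA.

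The lid subunits went both ways. Their median was 0.011 over mutated PNA and −0.018 over untreated for 6 genes. At 1.5-fold 0 were apart, where 13.1% of all genes were higher and 10.7% lower over mutated PNA, and 13.1% and 10.4% over untreated. PSMD12, a scaffold subunit of the lid, read 1995 with the anti-MYCN PNA, 2962 with the mutated PNA and 2572 in untreated cells. It had the lowest log2 difference to mutated PNA of all 37, −0.57, just short of 1.5-fold, and −0.37 to untreated. PSMD8 read 7288, 5697 and 5985, a log2 difference of 0.36 to mutated PNA. PSMD3 read 1298 with the anti-MYCN PNA, 1061 with the mutated PNA and 1428 in untreated cells. Mutated PNA was the low array for PSMD3, by −0.43 to untreated, so its log2 difference of 0.29 over mutated PNA stood beside −0.14 over untreated. PSMD11 read 5450, 5642 and 5611. PSMD6 and PSMD14, the enzyme that removes the ubiquitin chain, differed from mutated PNA by 0.060 and −0.037. No probe set of the rule named PSMD7 or PSMD13.

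The chaperones that assemble the particle had a group median over mutated PNA of −0.061 for 5 genes. At 1.5-fold 0 of them were apart, where 13.1% of all genes were higher and 10.7% lower over mutated PNA, and 13.1% and 10.4% over untreated. PSMD10, also called gankyrin, which binds an ATPase during base assembly, read 2610 with the anti-MYCN PNA, 3203 with the mutated PNA and 2982 in untreated cells. PSMG1, which with PSMG2 builds the alpha ring, read 1846, 2245 and 2115. Both were lowest on the anti-MYCN PNA array, by −0.30 and −0.28 on the log2 scale to mutated PNA. PSMG2 read 2730, 2536 and 2769, and the base chaperone PSMD5 read 866, 884 and 878. PSMG1 and PSMG2, which act as a pair, differed in opposite directions from mutated PNA, by −0.28 and 0.11, but not with median scaling, where PSMG2 lay at −0.073. PSMD9 differed by −0.061.

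The activators held the member furthest from both controls. PSME1, a subunit of the interferon-inducible activator ring that opens the core, read 1524 with the anti-MYCN PNA, 844 with the mutated PNA and 829 in untreated cells. The anti-MYCN PNA signal was 1.81-fold that of mutated PNA and 1.84-fold that of untreated, and the controls differed by 0.025 on the log2 scale. Of the 6745 genes 4.76% were at least as high over mutated PNA. PSME1 has a single probe set, and its partner PSME2 has no probe set of the rule. PSME3, which forms a separate nuclear activator, read 2534, 2022 and 2065 on its brightest probe set, a log2 difference of 0.33 to mutated PNA. Over untreated its 4 probe sets disagreed in direction, from −0.18 to 0.54. PSME4, a large activator that docks onto the core alone, read 1754, 1862 and 1983, and PSMF1, an inhibitor and assembly factor, read 1163, 1062 and 1068. Summed signals of the 8 leukocyte markers, a cell type rich in immunoproteasome, were 367.9 with the anti-MYCN PNA, 114.8 with the mutated PNA and 181.2 in untreated cells, with each marker below the filter and CD2 alone at 117, 2.0 and 14.4. The 3 epithelial (81.9, 43.2 and 59.5), 3 endothelial (98.1, 32.0 and 13.1) and 4 fibroblast markers (260.0, 157.3 and 150.2) also summed highest on the anti-MYCN PNA array. These sums hold dim signals without the floor. The median signal over all gene probe sets was also highest on that array, at 127.3 against 112.4 with the mutated PNA and 110.9 in untreated cells. The part of such cell types in the PSME1 and PSMB10 values was not tested.

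**Figure D3:**
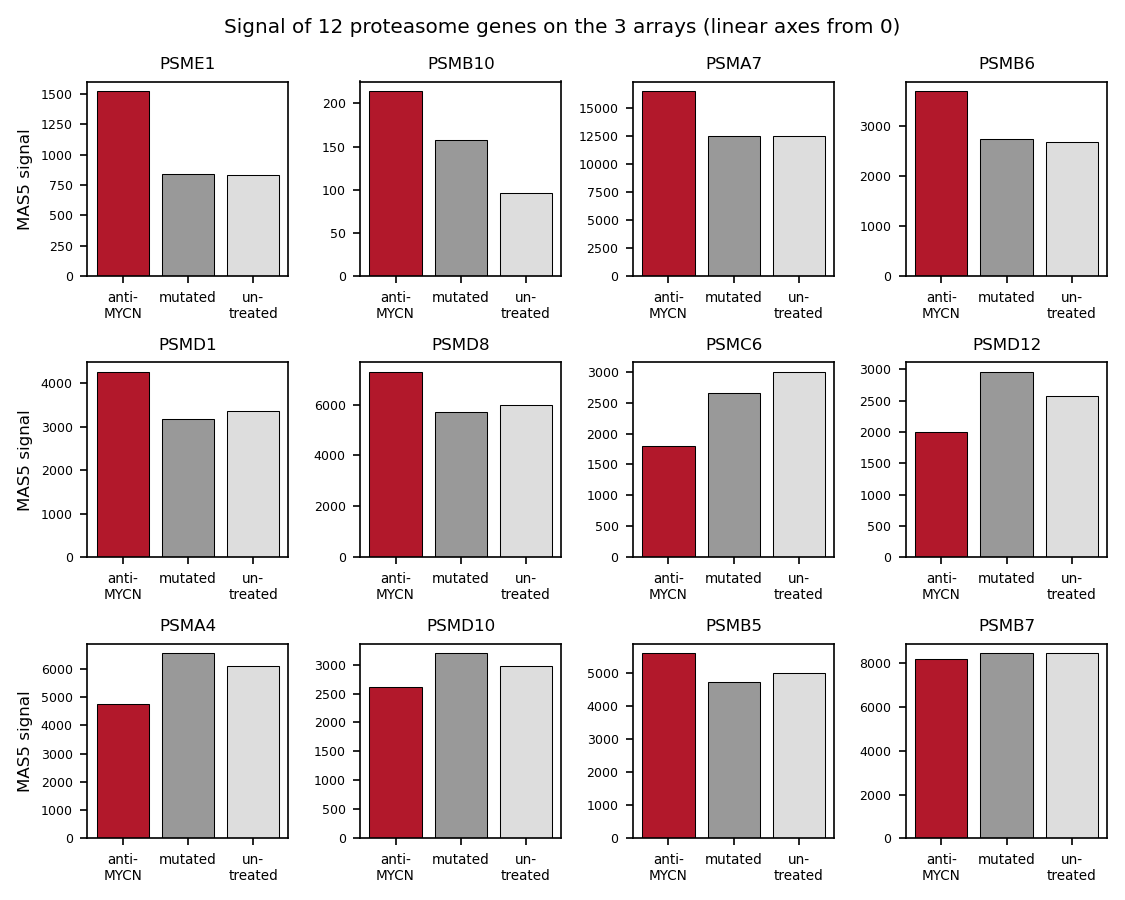
MAS5 signal (vertical axes, linear from 0) of 12 proteasome genes on the anti-MYCN PNA, mutated PNA and untreated arrays, 1 bar per array. PSME1 stands at 1524 against 844 and 829, PSMB10 steps through 215, 157 and 96.4, PSMC6, PSMD12, PSMA4 and PSMD10 have their lowest bar with the anti-MYCN PNA, and PSMB7 is nearly level.

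Different probe sets of the same gene often gave different values. Of the 64 probe sets 59 passed the filter, and 16 genes, PSMC3IP among them, had several that did. For 9 of the 16 the probe sets took opposite signs for anti-MYCN PNA over mutated PNA, and the median gap between a gene's highest and lowest log2 difference was 0.34. PSME3 had the widest gap: its 4 probe sets ran from −0.021 to 0.85. PSMF1 ran from −0.56 to 0.13 and PSMA7 from −0.079 to 0.41, so the higher PSMA7 signal was seen by its brightest probe set, an _x_at set (one with probes that can pick up further transcripts), and not by the other. PSMA2 ran from −0.51 to −0.091. PSMB2, nearly 0 for mutated PNA over untreated on its brightest probe set, stood at −0.69 on its dim _x_at set. For anti-MYCN PNA over untreated that dim set stood at −0.82, past 1.5-fold, against 0.23 on the brightest. For PSMD12 both probe sets were below mutated PNA, at −0.57 and −0.39, and for PSMD1 both were above it, at 0.42 and 0.072. All 3 probe sets of PSME4 were below mutated PNA, the brightest by −0.086 and the lowest by −0.44. PSMC6, PSMA4, PSMB6, PSMB10 and PSME1 have a single probe set each.

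**Figure D4:**
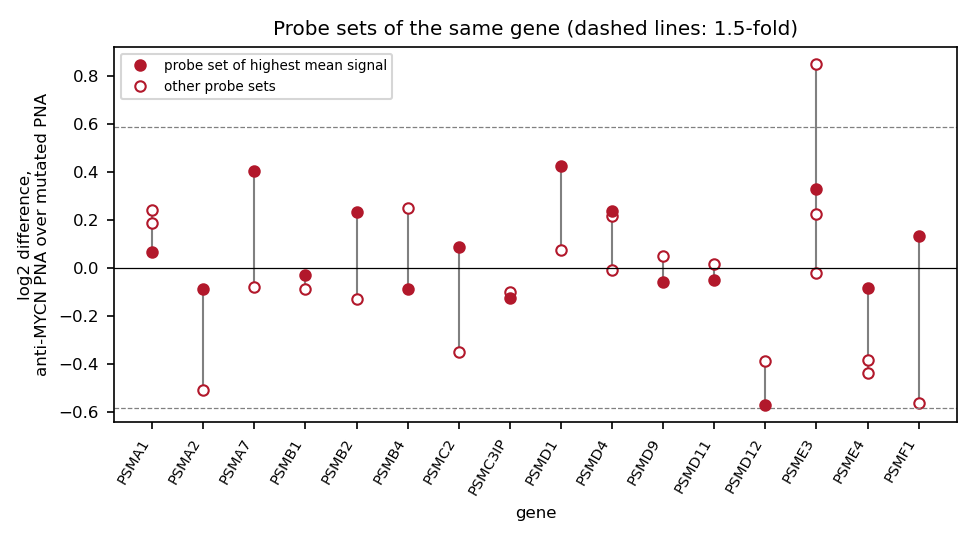
Log2 difference of anti-MYCN PNA over mutated PNA (vertical axis) for each probe set past the filter, for the 16 genes with several; filled dots are the probe set of highest mean signal and open dots the others, joined by a line per gene. The probe sets of 9 genes lie on both sides of 0, and those of PSME3 span −0.021 to 0.85.

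Members on the same chromosome differed in direction on several chromosomes. On chromosomes 3 and 20, however, all compared members lay above mutated PNA, and on chromosome 9 all lay below it. On chromosome 14 lie 5 compared members, which ran from PSMC6 at −0.56 to PSME1 at 0.85 for anti-MYCN PNA over mutated PNA, with PSMA3, PSMC1 and PSMB5 between them. On chromosome 17 lie 6, from PSMD12 at −0.57 to PSMB6 at 0.43. PSMC3IP, the recombination factor found by symbol, read 413 with the anti-MYCN PNA, 451 with the mutated PNA and 543 in untreated cells, highest in untreated.

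Genes that work with the proteasome but carry other symbols were listed alongside. Of 11 such subunits and cofactors, all passed the filter and 0 were 1.5-fold apart in any comparison. Of all genes 13.1% were higher and 10.7% lower over mutated PNA, and 13.1% and 10.4% over untreated. For mutated PNA over untreated the shares were 2.4% and 2.27%. The chain-trimming enzyme UCHL5 read 604 with the anti-MYCN PNA, 894 with the mutated PNA and 866 in untreated cells, and the adaptor ECPAS read 1133, 1681 and 1330, although its next brightest probe set differed from mutated PNA by only −0.059. Both were lowest on the anti-MYCN PNA array, at −0.56 and −0.57 to mutated PNA, and a dimmer probe set of UCHL5 stood at −0.67 to mutated PNA and −0.65 to untreated, past 1.5-fold. ADRM1, the ubiquitin receptor to which UCHL5 binds, went the other way by 0.39, and PSME3IP1 by 0.31.

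Of the factors that act on proteasome gene transcription, 1 of 5 compared was at least 1.5-fold higher over mutated PNA and 0 were lower, where 13.1% of all genes were higher and 10.7% lower. Over untreated 2 were higher and 2 lower, against 13.1% and 10.4% of all genes, and 1 of the lower ones, MAFF, passed the filter only through its untreated signal. NFE2L1 read 2331 with the anti-MYCN PNA, 1260 with the mutated PNA and 1378 in untreated cells. This is 1.85-fold mutated PNA and 1.69-fold untreated, from an _x_at probe set. Its other probe sets, at log2 differences of 0.79 and 1.04 to mutated PNA beside 0.89, were also higher with the anti-MYCN PNA. Over untreated these other NFE2L1 probe sets stood at 0.50, short of 1.5-fold, and 0.81. Its relative NFE2L2 read 1001, 1444 and 1516 and was lowest with the anti-MYCN PNA, by −0.53 and −0.60. The small MAF partner MAFG read 485, 346 and 284, MAFF, named after its values were seen, read 113 and 112 on the PNA arrays, under the filter, and 427 in untreated cells, and NGLY1, the enzyme that processes NFE2L1, differed by −0.15 from mutated PNA. The median of the proteasome genes stood at 0.060 beside these values.

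Among ubiquitin, its activating enzymes and shuttle factors, 2 of 8 were at least 1.5-fold higher over mutated PNA and 0 were lower, beside 13.1% and 10.7% of all genes. UBA1, the main ubiquitin-activating enzyme, read 3550 with the anti-MYCN PNA, 1970 with the mutated PNA and 2332 in untreated cells. NPLOC4, a cofactor of the segregase VCP, read 2584, 1481 and 1612. Both were highest on the anti-MYCN PNA array, whereas VCP itself differed from mutated PNA by −0.019. The ubiquitin gene UBB differed by 0.33, and the shuttle factor RAD23B by −0.36 from mutated PNA and 0.091 from untreated.

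Of the class I antigen processing genes and their inducers, 6 of 15 listed passed the filter. At 1.5-fold, 3 of the 6 were higher over mutated PNA, 1 of 6 over untreated and 0 lower in either. Of all genes 13.1% were higher in each comparison, and 10.7% were lower over mutated PNA and 10.4% over untreated. On the brightest probe sets 4 of the 6 lay above mutated PNA and 2 below it, B2M by −0.16 and PDIA3 by −0.19. Over untreated B2M lay at −0.13 and PDIA3 at 0.15. TAPBP, which loads peptides onto class I molecules, read 275 with the anti-MYCN PNA, 142 with the mutated PNA and 136.5 in untreated cells. IRF1, the interferon-induced factor that switches on immunoproteasome genes, read 270.3, 117 and 198, so its difference was 1.21 to mutated PNA and 0.45 to untreated, and mutated PNA was itself −0.75 to untreated. The chaperone CALR read 2700, 1599 and 2073 on its brightest probe set, with mutated PNA lowest, but on its other 2 past the filter mutated PNA lay above untreated by 0.13 and 0.15. HLA-E, a class I molecule that natural killer cells recognise, differed from mutated PNA by 0.47 on its brightest probe set and by 0.20 and 1.01 on its others. TAPBP and PSME1 thus had both control arrays together and the anti-MYCN PNA array above them, whereas for IRF1 mutated PNA was the low array. Dim genes as a whole were higher more often: with a mean signal under 1000 left out, the share of all genes at least 1.5-fold higher over mutated PNA was 5.61%, against 13.1% with them.

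**Figure D5:**
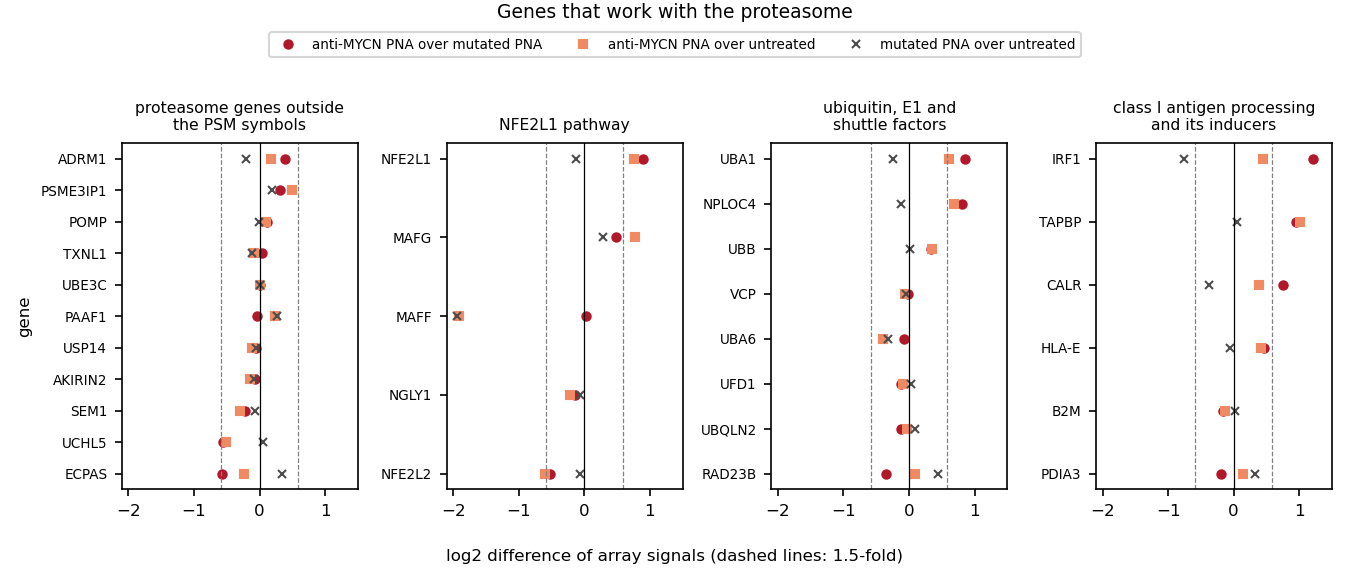
Log2 difference between arrays (horizontal axes) for genes that work with the proteasome, in 4 lists, for anti-MYCN PNA over mutated PNA (dots), anti-MYCN PNA over untreated (squares) and mutated PNA over untreated (crosses), with dashed lines at 1.5-fold. NFE2L1, UBA1, NPLOC4 and TAPBP have both anti-MYCN PNA points past the line on the higher side, and UCHL5 and NFE2L2 lie on the lower side.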

How the data were processed

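Total RNA of RH30 cells was measured on 3 arrays, 1 per condition. The authors deposited 1 linear intensity per probe set. The submitters' processing notes name MAS5 and GCOS, and MAS5 combines perfect match and mismatch probes. The 2% trimmed mean was 500.2 on each array. The number of arrays limits the precision. A GEO platform annotation named the genes. Of the probe sets naming 1 gene, 19058 had an identifier in the RefSeq table of GRCh38.p14, from which symbols and chromosomes came. Each array was brought to a common 2% trimmed mean, its signals were floored at 23.4 (the 25th percentile of all arrays pooled) and turned to log2, and probe sets whose mean reached 117 (the pooled 50th percentile) were compared. Each gene is given by its brightest probe set. With 1 array per group there is no test. The members and lists were chosen with earlier results of these data known.

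Signals on all arrays are printed for catalytic and immunoproteasome subunits, members 1.5-fold apart from both controls, and up to 2 members at each end of each role. Up to 4 genes of each accompanying list are named by the size of their difference. VCP, MAFF, B2M and PDIA3, outside this rule, were chosen after their values were seen. The code that counts 1.5-fold differences was checked on simulated data, which says nothing about replicate error. Promoter windows were cut to the 250 bases before the start. The tools were numpy 2.4.6 and pandas 2.3.3 under Python 3.11.15, with figures from matplotlib 3.10.9.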

Additional observations from a re-analysis of the deposited data

How the results depend on the processing

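The identity of the members at least 1.5-fold apart was the same with the signals as deposited, quantile normalization, no filter, no floor, a pseudocount and the median over probe sets: PSME1 over mutated PNA, PSME1 and PSMB10 above and PSMC6 below untreated, and PSMB10 for mutated PNA over untreated. Without _x_at and _s_at probe sets 24 of the 37 were compared and the same genes were called. With a 2-fold line the counts were 0 higher over mutated PNA, 1 higher and 0 lower over untreated, 0 higher for mutated PNA over untreated and 0 higher than both controls. The 1 over untreated was PSMB10, which fell just short of 2-fold with median scaling (0.96) and with a pseudocount (0.99). With a filter at the 75th percentile, and also at a mean signal of 1000, which was chosen after seeing the data, PSMB10 dropped out, leaving 1 higher over untreated and 0 higher for mutated PNA over untreated.

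Scaling arrays to the same median lowered the median of all genes from 0.062 to −0.12 for anti-MYCN PNA over mutated PNA and from 0.065 to −0.14 over untreated, and it moved the proteasome genes by a like amount. It gave 3 lower over mutated PNA (PSMA4, PSMC6 and PSMD12) and 1 lower than both controls (PSMC6). Group medians over mutated PNA were then −0.12 for all 37 genes, −0.19 for alpha subunits, 0.051 for beta subunits, −0.19 for ATPases, −0.17 for the lid, 0.084 for the non-ATPase base, −0.24 for chaperones and 0.049 for activators with the inhibitor. Over untreated they were −0.20, −0.20, −0.033, −0.34, −0.22, 0.067, −0.22 and 0.010 in that order. With the median over probe sets, beta subunits had 0.079 and activators 0.030 over mutated PNA, and alpha subunits −0.11 and activators −0.027 over untreated. Without _x_at and _s_at probe sets, alpha subunits had −0.37, ATPases −0.35 and activators 0.38 over mutated PNA, and −0.29, −0.27 and 0.35 over untreated, from 4, 3 and 2 genes. Fewer genes were compared in that setting.

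No paired analysis was possible because each group has 1 array. For the same reason no array was left out.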
